A study of Mus musculus with 10 samples.

Results

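Transcripts that are made mainly by white blood cells were measured in prostate epithelium sorted to be free of such cells. The 49 genes described here were chosen by name, as markers of leukocytes in general (12 genes), of neutrophils (10), of macrophages and monocytes (16) or of both kinds of phagocyte (11), out of 48895 identifiers in the expression tables. Myeloid cells are the phagocytes and their relatives. Neutrophils carry granules of antimicrobial proteins and reach tissue quickly, while macrophages settle there, take up debris and lipid, and read antibodies through Fc receptors. In prostate tumours both are found among the cells around the gland. CD45, the surface protein used to gate leukocytes out of a cell sorter, is encoded by Ptprc, and Spi1 encodes PU.1, the transcription factor that directs many genes of the myeloid lineage.

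The epithelium came from 3-month-old male mice of the C57BL/6 strain, gated as EpCAM+ and CD45-, in 3 libraries without a labelled Arid1a deletion (control A, B and C) and 3 labelled Arid1a KO (A, B and C). In both groups the Probasin promoter drives Cre in the prostate epithelium and deletes a further floxed gene, so the controls are not wild type. Floxed Arid1a is deleted by the same Cre in the group labelled Arid1a KO alone, and no deletion is designed for leukocytes. Myc-CaP, a cell line from a prostate tumour of a c-Myc transgenic mouse, gave 2 libraries with an empty vector (EV) and 2 labelled Arid1a KO, and served as a reference without leukocytes. The labels do not settle whether the Myc-CaP cells came from culture or from tumours grown in mice. Epithelial values are in RPKM (reads divided by transcript length and library depth), and Myc-CaP values are in TPM (length-scaled reads brought to a fixed sum in each library). All p-values measure the spread between these samples.

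The epithelium libraries held 28789595 to 36293361 reads counted in genes, and the Myc-CaP libraries 18432653 to 20698145. Arid1a itself was at 27.8, 21.9 and 26.5 RPKM in control A, B and C and at 31.1, 28.8 and 30.8 RPKM in the libraries labelled Arid1a KO. It was therefore not lower where its deletion is labelled. A value over the whole gene cannot show whether its floxed part was deleted, so it does not decide on the labels. Every direction below is from the labels. In Myc-CaP, Arid1a was at 60.5 and 61 TPM with the empty vector and at 39.5 and 40.3 TPM in the libraries labelled Arid1a KO. The defining markers of epithelium were abundant in the sorted cells, with Epcam at 279, 351 and 281 RPKM in the controls and 183, 194 and 225 RPKM in the libraries labelled Arid1a KO. In Myc-CaP, Epcam had 2 reads, Krt18 12, Cldn7 15, Cdh1 16, Cldn4 27, Krt5 33 and Krt14 100 over all 4 libraries. Krt8, a keratin of luminal epithelium, had 17 and 11 reads with the empty vector against 601 and 533 with the Arid1a KO label (log2 fold change 4.40 ± 0.12 SE, limma adjusted p = 0.00135).

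Transcripts of myeloid and other leukocytes were more abundant where Arid1a KO was the label. The 49 genes together held 1.06% to 1.22% of the reads in the controls and 1.99% to 2.21% in the libraries labelled Arid1a KO. Without Apoe, which many cell types make, the shares were 0.616% to 0.629% and 1.22% to 1.37%. In a limma fit over the 16275 genes that averaged 0.5 RPKM or more, called at a Benjamini-Hochberg adjusted p under 0.05, 41 of the 48 members tested were called higher and 2 lower. Over all genes tested, 57.1% were called, 27.5% higher and 29.6% lower. The median log2 fold change of the tested members was 0.91, against -0.03 over all genes tested. When each library was scaled to the same sum, both medians moved up, to 1.08 and 0.11. All 3 libraries labelled Arid1a KO lay above all 3 controls for 43 of the 49 members and below them for 2, where 32.4% and 34.4% of the genes tested were separated in these directions. In bulk RNA, more cells of a type and more RNA per cell cannot be told apart.

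**Figure D1:**
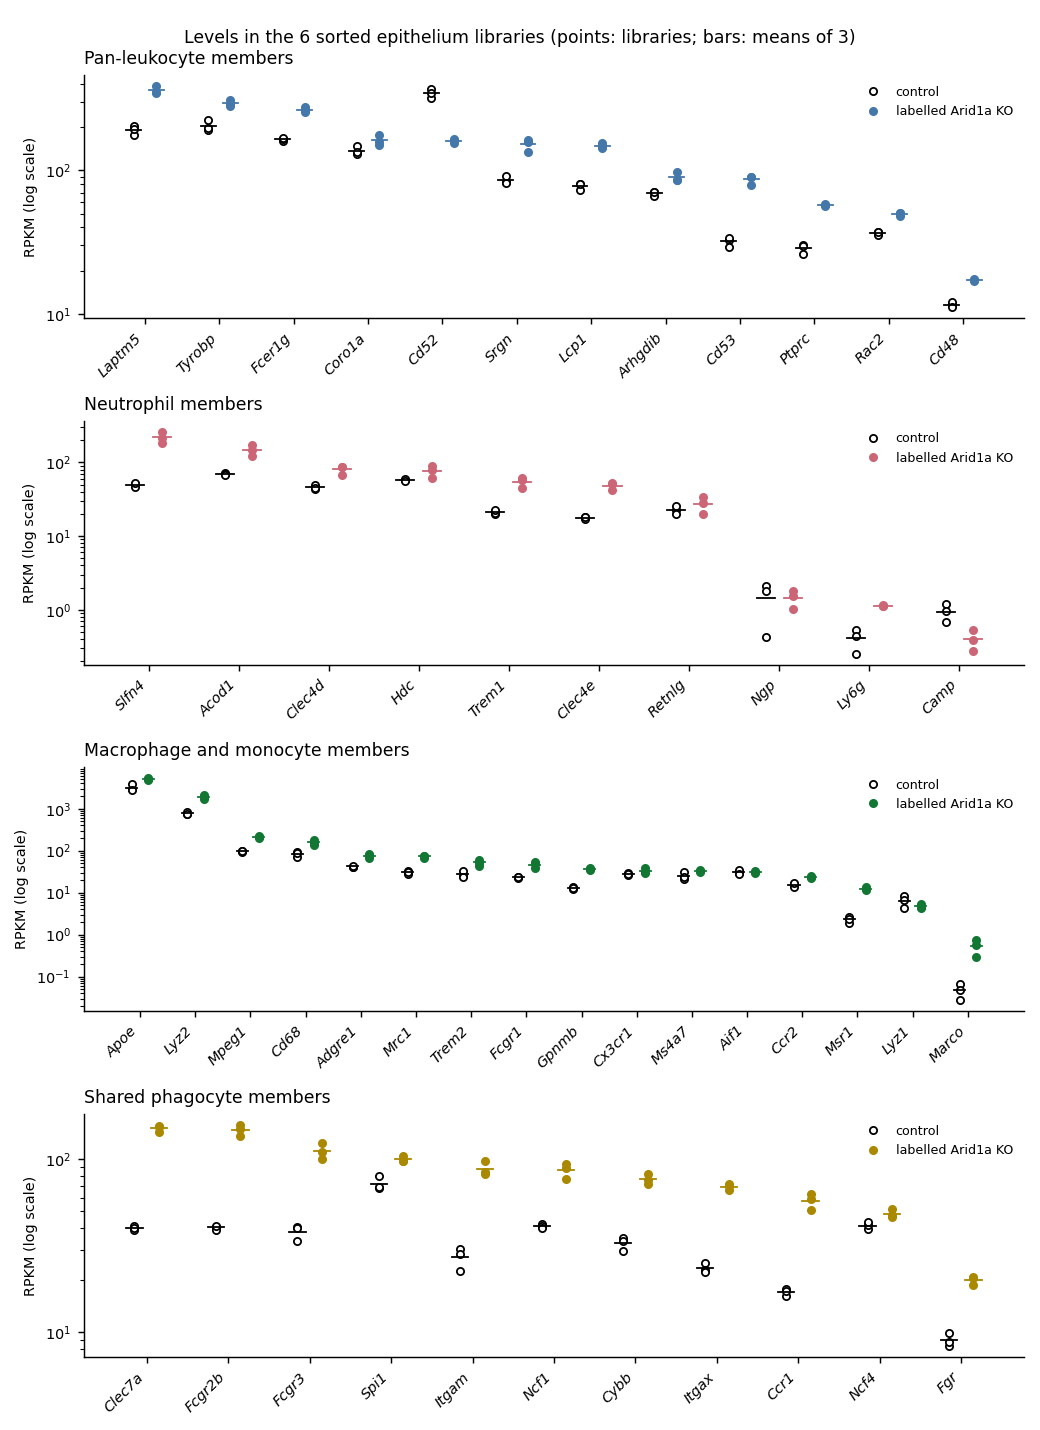
RPKM on a log scale of the 49 members in each of the 3 control libraries (open points) and the 3 labelled Arid1a KO (filled points), in 4 panels by group, with short bars at the means. Filled points sit above the open ones for 43 members and below them for Cd52 and Camp.

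Several members are neighbours in the genome, and neighbours did not always move alike. Coordinates are from GENCODE M21 on GRCm38. The C-type lectins Clec4d (chr6:123262111-123275265) and Clec4e (chr6:123281789-123289870) lie side by side. The integrin subunits Itgam (chr7:128062640-128118491) and Itgax (chr7:128129547-128150657) and the Fc receptors Fcgr2b (chr1:170958617-170976547) and Fcgr3 (chr1:171051174-171064935) form further pairs, as do the chemokine receptors Ccr1 (chr9:123962124-123968692) and Ccr2 (chr9:124101950-124113557). The lysozyme genes Lyz2 (chr10:117277331-117282321) and Lyz1 (chr10:117287797-117292868) are adjacent copies.

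Promoters from the RefSeq table (build GRCm38.p6, 250 bases before to 50 after each start) were found for 42 of the members, with 54 starts. PU.1 binds a purine-rich core, and the letters AGGAAGT on either strand were present in 24.1% of the members' promoters and in 9.35% of all 32851 promoters. They occurred in 11 members: Acod1, Arhgdib, Cd53, Fcgr1, Ly6g, Lyz1, Lyz2, Mrc1, Ptprc, Slfn4 and Trem1. The longer GAGGAAGT, which contains those letters, was in 5.56% of the members' promoters against 3.2% of all. The shorter GGAAGT, contained in both, was in 42.6% against 23.8%, and GAGGAA, which overlaps them, in 50% against 28.3%. For C/EBP factors TTGCNNAA was in 16.7% against 10.8%, and its special case TTGCGCAA in 0% against 0.183%. The palindrome GGAANTTCC, a form of the NF-kB site, was in 5.56% against 0.928%, in Acod1, Lyz1 and Lyz2, and the AP-1 site TGACTCA in 7.41% against 5.2%. All strings were searched on both strands, and a match is a description of letters, not of binding.

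Stretches around the AGGAAGT match, or its complement ACTTCCT, are shown in capitals for 6 members that the results below turn on, namely Slfn4 and Trem1 of the neutrophil group, the macrophage receptors Mrc1 and Fcgr1, and the lysozyme pair that parted. Each is written 5′ to 3′ on the strand of its gene.
Slfn4, chr11:83175073-83175159, plus strand: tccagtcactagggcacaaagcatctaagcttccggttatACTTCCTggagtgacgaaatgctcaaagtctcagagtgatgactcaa
Trem1, chr17:48232590-48232676, plus strand: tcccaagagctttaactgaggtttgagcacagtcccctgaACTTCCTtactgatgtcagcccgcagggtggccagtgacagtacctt
Mrc1, chr2:14229164-14229249, plus strand: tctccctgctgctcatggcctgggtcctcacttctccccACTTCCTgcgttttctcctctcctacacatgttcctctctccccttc
Fcgr1, chr3:96293984-96294070, minus strand: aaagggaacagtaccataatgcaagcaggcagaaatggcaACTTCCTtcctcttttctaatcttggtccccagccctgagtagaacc
Lyz2, chr10:117282326-117282412, minus strand: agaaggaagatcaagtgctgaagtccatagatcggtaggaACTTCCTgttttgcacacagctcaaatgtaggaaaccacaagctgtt
Lyz1, chr10:117292922-117293008, minus strand: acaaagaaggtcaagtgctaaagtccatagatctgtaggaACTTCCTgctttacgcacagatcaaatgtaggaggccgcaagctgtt
The lysozyme stretches were identical at 75 of 87 bases and placed the last base of the match at the same distance, 94 bases before the start.

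The pan-leukocyte members were measured in cells gated against CD45, and the cells that made these transcripts were not identified. Ptprc stood at 30.3, 26 and 29.5 RPKM in control A, B and C and at 56.2, 58.1 and 57.6 RPKM in the libraries labelled Arid1a KO, with 5279 to 10178 reads a library. The groups did not overlap, and the log2 fold change of RPKM + 1 was 0.98 ± 0.07 (SE, n = 3 per group; limma adjusted p = 5.36e-05). Cd53, a tetraspanin of leukocyte membranes, rose most in this group, from 32.9, 29 and 33.9 RPKM to 90.1, 90.2 and 78.8 RPKM (log2 fold change 1.41 ± 0.09 SE, limma adjusted p = 2.79e-05).

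The other pan-leukocyte rises were smaller. Lcp1 (the actin bundler L-plastin) and Laptm5 (a lysosomal membrane protein) both rose by 0.92 on the log2 scale, and Srgn, the proteoglycan serglycin of secretory granules, by 0.83. The adaptors Fcer1g and Tyrobp, which carry activation signals for Fc receptors and TREM proteins, rose by 0.68 and 0.52. Cd48, a surface ligand of lymphoid and myeloid cells, rose by 0.55, the GTPase gene Rac2 by 0.42 and its regulator Arhgdib by 0.36. Coro1a, which encodes the actin regulator coronin 1A, passed the threshold narrowly with a log2 fold change of 0.23 (limma adjusted p = 0.0469), and fell short of it in 6 of 16 alternative fits.

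Cd52 went the other way. This gene encodes a short glycoprotein of lymphocytes, monocytes and epithelium of the male genital tract. It stood at 317, 367 and 347 RPKM in the controls and at 166, 156 and 160 RPKM in the libraries labelled Arid1a KO, so the groups did not overlap in the direction opposite to Ptprc. Its log2 fold change was -1.09 ± 0.08 (SE, limma adjusted p = 5.13e-05), and it was called lower in each fit that was tried. In the controls Cd52 was the most abundant pan-leukocyte member per length.

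**Figure D2:**
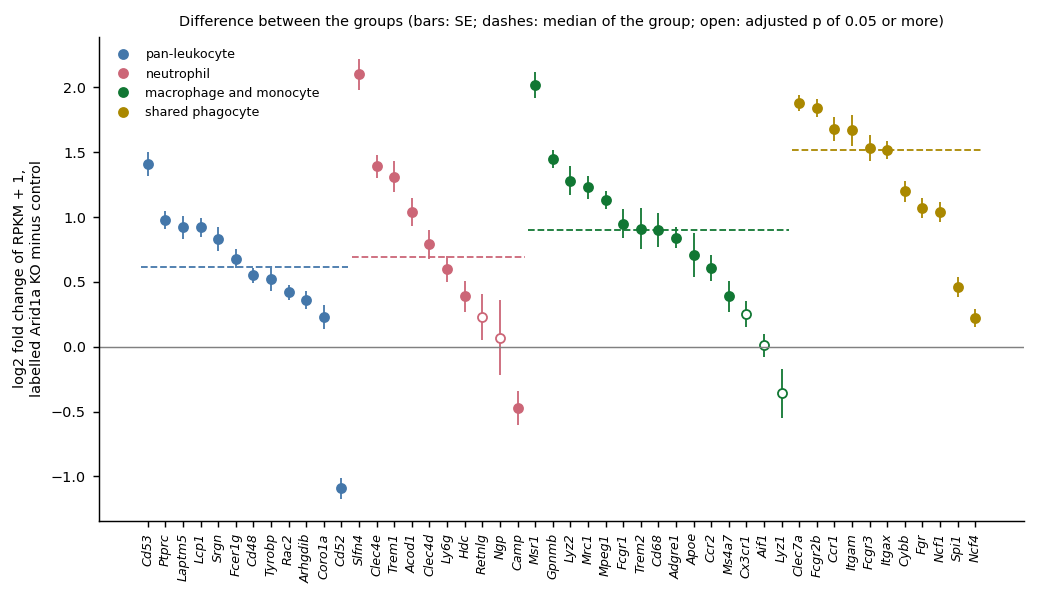
Log2 fold change of RPKM + 1 (labelled Arid1a KO minus control) of the 48 members tested, sorted within their 4 groups, with bars for the SE, filled points for an adjusted p under 0.05 and dashes at the group medians. The shared phagocyte genes have the highest median (1.52) and the pan-leukocyte genes the lowest (0.61).

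Most neutrophil members rose. Of the 10 genes, 7 were called higher and 1 lower, and the median log2 fold change was 0.69. Slfn4, a Schlafen gene of activated myeloid cells, had the largest log2 fold change of the 48 members tested, while the ratio of mean RPKM was larger for Msr1 (5.35) than for Slfn4 (4.39). It stood at 50.7, 46.7 and 51.9 RPKM in the controls and at 214, 259 and 183 RPKM in the libraries labelled Arid1a KO (log2 fold change 2.10 ± 0.12 SE, limma adjusted p = 2.26e-05). The lowest of the latter was above the highest control.

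Pattern receptors of neutrophils and macrophages followed. Clec4e, the receptor Mincle for microbial and dying-cell glycolipids, was at 18.2, 17 and 18.1 RPKM in the controls and 50.2, 52.3 and 42.7 RPKM in the libraries labelled Arid1a KO (log2 fold change 1.39 ± 0.09 SE, limma adjusted p = 2.81e-05). Its neighbour Clec4d, the related receptor MCL, rose by 0.79. Trem1, which amplifies inflammatory signals through Tyrobp, was at 20.2, 20.7 and 22.8 RPKM against 57.3, 61.3 and 44.9 RPKM (log2 fold change 1.31 ± 0.12 SE, limma adjusted p = 0.000111). The groups did not overlap for any of these. Acod1, the enzyme that makes itaconate in activated phagocytes, rose by 1.04 on the log2 scale, from 67.9 to 72.7 RPKM in the controls to 122 to 170 RPKM.

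Ly6g, the surface antigen that defines mouse neutrophils in flow cytometry, was scarce in these libraries. It had 7, 18 and 13 reads in the controls and 32, 32 and 30 reads in the libraries labelled Arid1a KO, which is 0.253 to 0.53 RPKM against 1.11 to 1.15 RPKM. Its log2 fold change was 0.60 ± 0.10 (SE, limma adjusted p = 0.00201), on a scale that understates changes of low genes. It passed the filter of a mean of 0.5 RPKM only through the libraries labelled Arid1a KO. Ly6g belongs to a family of similar genes, so reads assigned to it are uncertain.

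Camp, Ngp and Retnlg were low or overlapped between the groups. Camp, the antimicrobial peptide cathelicidin of secondary granules, had 21, 15 and 18 reads in the controls and 5, 7 and 9 reads in the libraries labelled Arid1a KO (log2 fold change -0.47 ± 0.13 SE, limma adjusted p = 0.014). That call was lost when a trend on gene length was removed from each library (limma adjusted p = 0.162). Camp passed the filter of a mean of 0.5 RPKM only through the controls. Ngp, the neutrophilic granule protein, had 72, 18 and 65 reads against 63, 53 and 34 reads, with groups that overlapped (limma adjusted p = 0.851). Retnlg, a resistin-like secreted protein of neutrophils, was at 22.4, 25.6 and 19.9 RPKM against 33.7, 27.7 and 19.9 RPKM, and its log2 fold change of 0.23 was not called (limma adjusted p = 0.311). Without library C of those labelled Arid1a KO, Retnlg was called higher.

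Hdc encodes histidine decarboxylase, which makes histamine in mast cells and basophils and in immature myeloid cells. It rose from 57.3, 59.5 and 56.4 RPKM to 79.3, 89 and 62.2 RPKM (log2 fold change 0.39 ± 0.12 SE, limma adjusted p = 0.0277) and fell short of the threshold in 5 of 16 alternative fits. Of 8 mast cell and basophil markers 6 were tested in the same libraries. By limma 5 were called lower and 0 higher, where 29.6% of all genes tested were called lower. When each library was scaled to the same sum, 5 were called lower and 1 higher. The 8 markers summed to 278 to 320 RPKM in the controls and 51.1 to 90.7 RPKM in the libraries labelled Arid1a KO. The mast cell protease Mcpt4 had the largest of these falls, with a log2 fold change of -2.72 ± 0.23 (SE, limma adjusted p = 8.57e-05). Hdc and the 5 markers called lower thus moved in opposite directions, and the part of mast cells in the Hdc level was not tested.

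Within the group labelled Arid1a KO, library C was the lowest of the 3 for 9 of the 10 neutrophil members. It was the lowest for 6 of 12 pan-leukocyte, 5 of 16 macrophage and monocyte and 5 of 11 shared phagocyte members. Library C was also the lowest for 6 of 6 endothelial, 5 of 6 erythroid, 5 of 7 fibroblast and 4 of 5 smooth muscle markers. It was the highest for 8 of 8 mast cell and basophil markers and for 7 of the 16 macrophage and monocyte members. It was also the highest for 5 of 8 epithelial, 5 of 10 T and NK cell and 4 of 7 B cell markers, and the lowest for 2, 3 and 0 of them. How often library C was the lowest over all genes was not counted. The summed reads of the neutrophil members were 0.2%, 0.229% and 0.166% of libraries A, B and C labelled Arid1a KO, and 0.0768%, 0.0753% and 0.0768% of control A, B and C. Without library C, 8 of the 10 neutrophil members were called higher and 1 lower.

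Macrophage and monocyte members rose in most cases. Of the 15 tested, 12 were called higher and 0 lower by limma, with a median log2 fold change of 0.90, and the count of 0 held at an unadjusted p under 0.05 and by limma-voom on the recovered reads, as did each other 0 given here for a list of epithelium genes. As a share of reads this group rose from 0.67%, 0.807% and 0.636% in control A, B and C to 1.33%, 1.26% and 1.19%. Apoe, the lipid carrier apolipoprotein E, and Lyz2, the lysozyme of macrophages and granulocytes, held most of these reads. Apoe alone held 68% to 74.5% of them in the controls, and without it the group made up 0.204% to 0.207% of the control reads and 0.433% to 0.483% of those in the libraries labelled Arid1a KO. Apoe was at 2924, 3792 and 2727 RPKM in the controls and at 5310, 5238 and 4795 RPKM in the libraries labelled Arid1a KO (log2 fold change 0.71 ± 0.17 SE, limma adjusted p = 0.00817). That call was lost in 1 of 16 alternative fits, the one with no filter on low values (limma adjusted p = 0.132).

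Msr1 and Gpnmb had the largest log2 fold changes of the 15 tested. Msr1, the class A scavenger receptor for modified lipoproteins, was at 2.7, 1.93 and 2.34 RPKM in the controls and 13.3, 11.8 and 12.2 RPKM in the libraries labelled Arid1a KO (log2 fold change 2.02 ± 0.10 SE, limma adjusted p = 1.31e-05). The related scavenger receptor Marco was too low to be tested, with 4, 2 and 3 reads against 35, 17 and 43 reads. Neither gene overlapped between the groups. Mrc1, the mannose receptor CD206, rose by 1.23 on the log2 scale and Gpnmb, a glycoprotein of lipid-laden macrophages that other cells also make, by 1.45. Trem2, a lipid-sensing receptor that signals through Tyrobp, was at 23.6 to 33.7 RPKM against 44.2 to 61.3 RPKM, a rise of 0.91.

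Of the remaining macrophage genes some rose and others were not called. Adgre1, which encodes the F4/80 antigen, was at 41.8, 41.4 and 42.9 RPKM in the controls and 78.8, 68.6 and 81.9 RPKM in the libraries labelled Arid1a KO (log2 fold change 0.84 ± 0.08 SE, limma adjusted p = 0.000123). Mpeg1 (the pore-forming perforin-2), Fcgr1 (the high-affinity IgG receptor) and Cd68 (a lysosomal glycoprotein) rose by 1.13, 0.95 and 0.90. Ms4a7, a tetraspan membrane protein of macrophages, rose by 0.39 (limma adjusted p = 0.0261), a call that was lost in 5 of 16 alternative fits. Aif1, the actin-binding protein IBA1, stood at 29.8, 34.5 and 27.4 RPKM against 30.9, 29.4 and 32.2 RPKM, with overlapping groups and a log2 fold change of 0.01 ± 0.09 (SE, limma adjusted p = 0.897). With the length trend removed, its log2 fold change was 0.24 and it was called higher.

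The monocyte chemokine receptors differed in size. Ccr2, which brings inflammatory monocytes out of the marrow, rose from 16.4, 13.3 and 16.8 RPKM to 24.1, 22.9 and 25.3 RPKM (log2 fold change 0.61 ± 0.10 SE, limma adjusted p = 0.0013). Cx3cr1, the fractalkine receptor of patrolling monocytes and resident macrophages, was at 29.7, 26.8 and 27.5 RPKM against 31.8, 30 and 38.8 RPKM. Its groups did not overlap, but the log2 fold change of 0.25 ± 0.10 (SE) was not called (limma adjusted p = 0.069). It was called in 5 of 16 alternative fits, among them both count-based ones.

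The lysozyme pair parted. Lyz2 was at 743, 831 and 742 RPKM in the controls and 2078, 1859 and 1713 RPKM in the libraries labelled Arid1a KO (log2 fold change 1.28 ± 0.11 SE, limma adjusted p = 0.000107). Lyz1, the form known from Paneth cells of the gut, was at 8.33, 4.31 and 6.8 RPKM against 4.31, 4.46 and 5.3 RPKM, with groups that overlapped (limma adjusted p = 0.148). Without control B, Lyz1 was called lower. The copies are near-identical, so how reads were split between them is uncertain, and the Lyz1 reads (166 to 312 a library) were few beside those of Lyz2 (23244 to 66875).

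Genes that neutrophils and macrophages share rose most as a group. All 11 were called higher by limma, with a median log2 fold change of 1.52 and a range from 0.22 to 1.88. Clec7a, the beta-glucan receptor Dectin-1, led with 41.1, 38.8 and 40 RPKM in the controls and 155, 153 and 143 RPKM in the libraries labelled Arid1a KO (log2 fold change 1.88 ± 0.06 SE, limma adjusted p = 2.45e-06). The low-affinity IgG receptors Fcgr2b, which inhibits, and Fcgr3, which activates, rose by 1.84 and 1.53. They are similar in sequence, so reads may have been split between them.

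The integrin chains Itgam (CD11b) and Itgax (CD11c) were among the clearest differences. Itgam was at 30.1, 22.6 and 28.5 RPKM in the controls and 97.2, 82.1 and 84.7 RPKM in the libraries labelled Arid1a KO (log2 fold change 1.67 ± 0.12 SE, limma adjusted p = 4.66e-05). Itgax was at 25.3, 23 and 22.2 RPKM against 71.7, 70.1 and 66.5 RPKM (log2 fold change 1.52 ± 0.07 SE, limma adjusted p = 9.41e-06). The chemokine receptor Ccr1, which binds several CC chemokines, rose by 1.68 on the log2 scale, and its neighbour Ccr2 by 0.61 as given above. The Src-family kinase Fgr rose by 1.07.

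The 3 members that encode subunits of the phagocyte NADPH oxidase, which makes superoxide in the phagosome, rose by unequal amounts. Cybb, the membrane catalytic subunit gp91phox, rose from 35.2, 29.6 and 33.8 RPKM to 82.4, 72.2 and 75.9 RPKM (log2 fold change 1.20 ± 0.08 SE, limma adjusted p = 4.72e-05). The cytosolic organizer Ncf1 rose by 1.04 and the cytosolic subunit Ncf4 by 0.22 (limma adjusted p = 0.0238), a call that was lost in 3 of 16 alternative fits. Cyba, the membrane partner of Cybb and no member, was at 247, 310 and 241 RPKM against 315, 316 and 295 RPKM, with overlapping groups, and was not called (limma adjusted p = 0.113). Spi1 was at 68.1, 79.4 and 68.9 RPKM in the controls and 104, 96.9 and 97.6 RPKM in the libraries labelled Arid1a KO, so its log2 fold change of 0.46 ± 0.08 (SE, limma adjusted p = 0.00189) was below that of Ptprc.

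The rise of Ptprc leaves the question of which members rose more or less than it did. Each library was therefore divided by its own Ptprc value and refitted over all genes, a comparison added after the data were seen. Of the 48 members, 14 were higher relative to Ptprc and 17 lower, and 17 differed from it in neither direction at an adjusted p under 0.05, Ptprc itself among them. Over all genes tested, 3.88% were higher and 83.1% lower relative to Ptprc.

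The 14 higher members were led by Msr1 and Slfn4, with log2 fold changes relative to Ptprc of 1.20 (limma adjusted p = 2.16e-05) and 1.11 (limma adjusted p = 0.000116). Of the 11 shared phagocyte genes 7 were among them, namely Clec7a, Fcgr2b, Ccr1, Itgam, Fcgr3, Itgax and Cybb, with values from 0.89 down to 0.22. Gpnmb, Mrc1, Clec4e, Trem1 and Cd53 made up the rest. The calls of Trem1, Cybb and Mrc1 were each lost in 5 or 6 of the 11 alternative fits of this comparison.

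Members that lagged behind Ptprc were spread over the groups. Cd52 was lowest, at -2.09 on the log2 scale, and Lyz1, Aif1 and Camp followed at -1.20, -0.96 and -0.86. Camp is a low gene, whose change this scale understates. Its ratio of mean RPKM between the groups (0.419) was below that of Cd52 (0.468). Of the 12 pan-leukocyte genes 7 were lower relative to Ptprc, the adaptors Tyrobp and Fcer1g among them, and the Fcer1g call was lost in 4 of the 11 alternative fits. Length differs here, with 5876 bases for Ptprc, 569 for Tyrobp and 658 for Fcer1g. With the length trend removed, the log2 fold change between the groups was 0.86 for Ptprc, 0.72 for Tyrobp and 0.91 for Fcer1g, so that Fcer1g no longer lay below Ptprc. Adgre1, Cd68, Fcgr1, Lyz2, Apoe, Trem2, Mpeg1 and Acod1 were called in neither direction, which does not show that they kept pace with Ptprc.

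**Figure D3:**
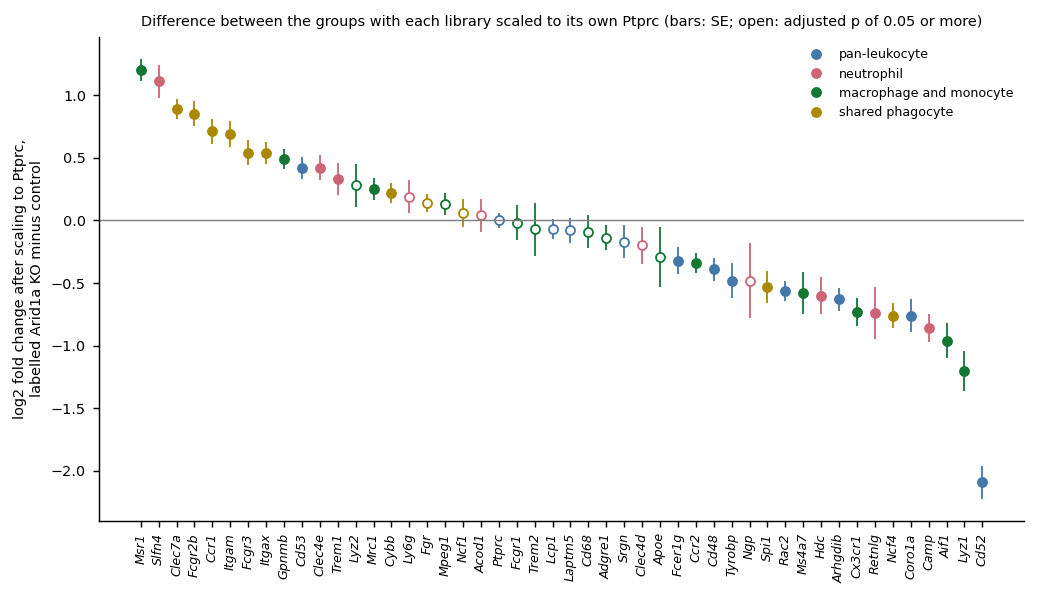
Log2 fold change (labelled Arid1a KO minus control) of the 48 members tested after each library was scaled to its own Ptprc value, in descending order, with bars for the SE and filled points for an adjusted p under 0.05. Msr1 and Slfn4 stand highest at 1.20 and 1.11, and Cd52 lowest at -2.09.

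Length moved with the result. The transcript lengths behind the RPKM values ran from 503 to 7516 bases for the tested members. Their log2 fold change correlated with length across genes (Spearman's rho = 0.60 over 48 members, 0.23 over all genes tested), and genes of a library share its depth and RNA quality. The 6 members shorter than 1000 bases had a median log2 fold change of 0.37, the 14 between 1000 and 2000 bases 0.50, the 10 between 2000 and 3000 bases 1.04 and the 18 longer ones 1.17. The corresponding medians of all genes tested were -0.16, -0.21, -0.10 and 0.08. With the trend on length removed from each library, 42 members were called higher and 1 lower, with a median of 0.95. In that fit Retnlg was still not called, with a log2 fold change of 0.44 (limma adjusted p = 0.0741).

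**Figure D4:**
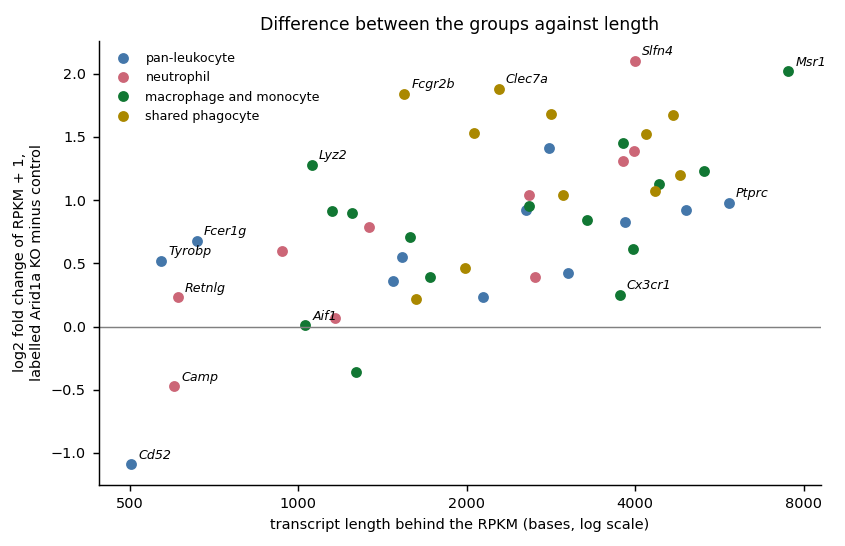
Log2 fold change of RPKM + 1 (labelled Arid1a KO minus control) of the 48 members tested against transcript length in bases on a log scale, coloured by group. Cd52, the shortest at 503 bases, is lowest at -1.09, and Slfn4 and Msr1 are the highest at 2.10 and 2.02.

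Further genes of the same cells, from lists outside the 49, were counted in the same fit. Of 24 other neutrophil genes 20 were tested, 13 were called higher and 2 lower, with a median log2 fold change of 0.62. Ltf, the iron-binding granule protein lactoferrin that epithelium also secretes, rose by 2.15, the neutrophil surface protein gene Cd177 by 1.76 and the collagenase gene Mmp8 by 1.38. The 2 called lower were Pglyrp1 and Ctsg, with log2 fold changes of -0.89 and -0.83 (limma adjusted p = 0.00369 and 0.000173). Pglyrp1 fell from 506, 697 and 453 RPKM in the controls to 276, 265 and 342 RPKM with the Arid1a KO label. The summed RPKM of the 24 genes overlapped, at 978 to 1378 in the controls and 1273 to 1510 with that label. Their share of reads did not, at 0.117% to 0.143% and 0.222% to 0.265%. S100a8 and S100a9, the calprotectin subunits abundant in neutrophils, had log2 fold changes of 0.29 (limma adjusted p = 0.332) and 0.39 (limma adjusted p = 0.152). They were not called. With the length trend removed, S100a9 was called higher at 0.58 (limma adjusted p = 0.0468) and S100a8 was not called (limma adjusted p = 0.162). Library C of those labelled Arid1a KO had the lowest value of that group for 16 of the 24 genes.

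Of 20 other macrophage and monocyte genes 19 were tested, 17 were called higher and 0 lower by limma, with a median of 0.81. Clec4n, the receptor Dectin-2 in the same cluster as Clec4d and Clec4e, rose by 2.87, Mertk, a receptor for dying cells, by 2.06, and Ms4a6d by 1.86. Of 16 genes of the NADPH oxidase and of phagocyte signalling, 15 were called higher and 0 lower, with a median of 0.77, and the tyrosine kinase gene Syk rose by 1.49, the integrin beta chain gene Itgb2 by 1.21 and Vav1 by 1.11. Over the 4 Myc-CaP libraries, 23 of the 24 neutrophil, 17 of the 20 macrophage and 11 of the 16 signalling genes had at most 50 reads. Among the others were Mertk with 1547 reads, Syk with 566, Lgmn with 2205, Lyn with 2954, Cebpb with 16810 and Cebpa with 41823. Clec4n had 0 reads there, Ms4a6d and Vav1 1 each and Itgb2 3. The part of tumour cells in these rises was not tested.

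Markers of other cells were counted in the same fit, in which 57.1% of all genes tested were called, and for most lists the share called was near or below that. Of 10 T and NK cell markers 5 were called higher and 1 lower, with a summed level of 41.2 to 45.9 RPKM in the controls and 53.3 to 59.6 RPKM in the libraries labelled Arid1a KO. Of 6 B cell markers tested 4 were called higher and 0 lower, with sums of 10.2 to 12.1 and 13.5 to 23.3 RPKM, and of 8 dendritic cell markers 3 higher and 0 lower, with sums of 33.6 to 45.6 and 53.8 to 60.6 RPKM. Fibroblast markers summed to 1690 to 2467 and 1409 to 1982 RPKM with 3 of 7 called lower, and endothelial markers to 41.8 to 54.1 and 53 to 68.3 RPKM with 1 of 6 called higher. Smooth muscle markers summed to 114 to 133 and 96 to 118 RPKM, with 4 of 5 called lower and 1 higher. Erythroid markers summed to 472 to 604 and 82.5 to 136 RPKM with 5 called lower. Epithelial markers summed to 3257 to 3967 and 4113 to 4492 RPKM, with 2 of 8 called higher and 2 lower. Those called higher were Krt5 (means of 302 RPKM in the controls and 762 RPKM with the Arid1a KO label) and Krt14 (146 and 799 RPKM). Those called lower were Epcam and Krt18, with log2 fold changes of -0.59 and -0.37, so the sum does not speak for each marker. The part of all these other cells in the member levels was not tested.

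Few reads of most members were found in Myc-CaP, a line that also had few reads of most epithelial markers, as given above. It is 1 cell line, and its reads do not show what sorted epithelial cells carry. Over 77369996 reads in the 4 libraries, 15 of the 49 members had 0 reads, which allows up to 3 reads in that total by counting error alone, and 26 had between 1 and 50 reads. Ptprc had 2 reads in all, both in EV library 2. Tyrobp, Clec7a, Ccr1, Trem1, Slfn4, Ly6g, Camp, Ngp and Retnlg were among the 15 with none. The neutrophil members together had 14 and 12 reads in the EV libraries and 44 and 47 reads in those labelled Arid1a KO, and the shared phagocyte members 7 and 28 against 53 and 48 reads. The second libraries held small traces of more members, with at least 1 read of 29 in EV library 2 and 28 in Arid1a KO library 2, against 19 in each first library. Markers of stroma moved with these traces, with 476 and 1765 reads of fibroblast markers in EV libraries 1 and 2 and 368 and 803 in Arid1a KO libraries 1 and 2. Smooth muscle markers had 19 and 212 reads in the former and 27 and 108 in the latter, and the part of other cells in the traces was not tested.

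**Figure D5:**
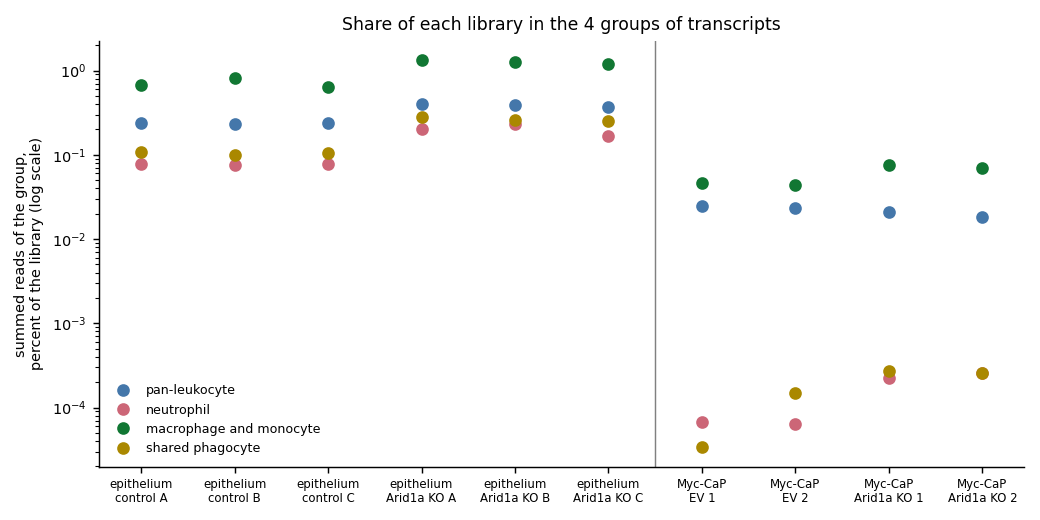
Summed reads of the 4 groups of members as a percentage of each library, on a log scale, for the 6 epithelium libraries and, right of the line, the 4 Myc-CaP libraries. Neutrophil and shared phagocyte members are at 0.0753% or more in each epithelium library and at most 0.000271% in each Myc-CaP library.

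The members that did reach appreciable levels in Myc-CaP are ones that other cells also make. Gpnmb had 9381 and 7933 reads with the empty vector and 14410 and 12559 reads in the libraries labelled Arid1a KO. Arhgdib had 5081 and 4367 reads against 4086 and 3368, and Apoe 131 and 163 reads against 150 and 128. Together Gpnmb and Arhgdib made up nearly the whole share of the macrophage and pan-leukocyte groups in this line.

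A total of 8 members passed the filter of a mean of at least 0.5 TPM, and 2 of them were called higher by limma, where 6.43% of all 13974 genes tested were called in either direction. Gpnmb was at 282 and 271 TPM with the empty vector and 459 and 435 TPM in the libraries labelled Arid1a KO (log2 fold change 0.69 ± 0.06 SE, n = 2 per group, limma adjusted p = 0.00676). Mpeg1 was at 0.336 and 0.265 TPM against 2.55 and 2.27 TPM, from 13 and 9 reads against 93 and 76 (log2 fold change 1.39 ± 0.18 SE, limma adjusted p = 0.0213). Mpeg1 passed the filter only through the libraries labelled Arid1a KO, and its call was lost with no filter (limma adjusted p = 0.0539). Both calls were lost when any 1 of the 4 libraries was left out. Ncf1 (4 and 10 reads against 50 and 34) and Acod1 (12 and 9 against 31 and 37) had log2 fold changes of 1.10 and 0.83 that were not called (limma adjusted p = 0.0641 and 0.0844), and the groups did not overlap. They too passed the filter only through the libraries labelled Arid1a KO. The epithelium and Myc-CaP values were normalized separately, and no difference between the systems was tested.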

How the data were processed

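RNA-seq of 6 epithelium and 4 Myc-CaP libraries was analysed. Read pairs were aligned to GRCm38 by the authors and counted per gene with HTSeq. They deposited RPKM values for the epithelium and TPM values for Myc-CaP. The aligner is given as TopHat2 in the study and as HISAT2 in the submitters' processing notes. The transcript lengths used are not given in the sources used here. Whole reads were recovered from the value steps: 100% of the 35175 rows above 0 gave whole reads (tolerance 0.001 reads), with 1 length per gene, and depth follows from the same steps. Intervals and limits from reads cover counting error only.

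After a log2(value + 1) transform, those genes that averaged 0.5 or more were fitted with limma 3.58.1 in R 4.3.3 (lmFit, eBayes with trend, 2 groups, no covariate), separately for each table. P-values are two-sided, Benjamini-Hochberg adjusted over all genes tested, and called under 0.05. Fold changes of low genes are understated on this scale. The script was tested on simulated data. Alternatives were a pseudocount of 0.1, no filter, a mean of at least 5, quantile normalization, equal sums, no trend, a replicate block and leaving out each library. Those added after seeing the data were limma-voom on the recovered reads with 2 scalings, removal of a length trend, and scaling to Ptprc.

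The further gene deleted in all 6 epithelium samples is not reported here. The members and lists were chosen with earlier results of these data known. All 49 members are named, and from each further list up to 3 called genes with the largest change and separated groups, plus genes a result turns on. Cyba, S100a8, S100a9, Pglyrp1 and Ctsg and the epithelial markers of Myc-CaP were named after their values were seen. So were the promoter strings and the stretches shown.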

Additional observations from a re-analysis of the deposited data

Results flagged for a closer look

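Arhgdib moved in opposite directions in the 2 systems in each library. In the epithelium it was at 70.8, 66.2 and 70.5 RPKM in the controls and 96.6, 85.3 and 86.2 RPKM in the libraries labelled Arid1a KO, with a log2 fold change of 0.36. In Myc-CaP it was at 392 and 383 TPM with the empty vector and 334 and 300 TPM in the libraries labelled Arid1a KO, with a log2 fold change of -0.29 that was not called (limma adjusted p = 0.0886). The difference between the systems was not tested.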

How the results depend on the processing

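In the epithelium the members called higher numbered 38 to 42 in the alternatives that kept all libraries, and 37 to 41 when 1 library was left out, with 2 to 3 called lower and 39 to 44 called in all. The members called lower numbered 1 with a mean of at least 5 (5872 genes called, of 9027 tested), with median-of-ratios scaling of the recovered reads and with the length trend removed, where Camp was not tested or not called. All genes called numbered 7768 to 8819 with 1 library left out. Same-letter libraries of the epithelium did not deviate together (correlations of 0.0409, 0.00944 and -0.0573), and the replicate block gave 40 members higher and 2 lower. Relative to Ptprc, leaving out 1 library gave 11 to 16 members higher and 16 to 18 lower, the replicate block 11 and 16, and 8411 genes were called with a mean of at least 5. Over all settings, 22 single member values lost and 8 gained a call in the epithelium.

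In Myc-CaP the calls depend on the setting. Members called numbered 1 (higher) of 34 with no filter (358 genes called) and 1 (higher) of 3 with a mean of at least 5, and 451 genes were called without the trend. The replicate block gave 4 members, 3 higher and 1 lower (2771 genes). Same-numbered libraries deviated together with a correlation of 0.195, and with 2 libraries per group the crossed pairs must then give -0.195. Both second libraries held more of the fibroblast and smooth muscle reads given above, and what same-numbered libraries share was not tested. On recovered reads limma-voom called 5 members, 4 higher and 1 lower (1563 genes), and 4 higher with median-of-ratios scaling (1592 genes). With 1 library left out, 0 members and 47 to 76 genes were called, the lone library being assumed to vary like the other group. The cause was not tested. Reads limit Ly6g, Camp, Ngp and Marco, each under 100 reads in every epithelium library.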

Other observations

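Platelet markers, which were in no comparison above, held 1 gene with a far larger change than any member. Ppbp, a chemokine precursor stored in platelet granules, was at 0.343, 0.254 and 0.444 RPKM in the controls and at 78.2, 79.7 and 67.2 RPKM in the libraries labelled Arid1a KO (log2 fold change 5.82 ± 0.09 SE, limma adjusted p = 1.33e-07). It passed the filter only through the libraries labelled Arid1a KO. Its neighbour on chromosome 5, Pf4, which platelets store in the same granules, was at 28, 32.8 and 28 RPKM against 37.3, 39.2 and 39.8 RPKM (log2 fold change 0.38). The platelet receptor genes Itga2b and Gp1bb were called lower, with log2 fold changes of -0.33 and -0.41, and Gp9 and Treml1 were too low to be tested. In Myc-CaP, Ppbp had 63 and 60 reads with the empty vector and 91 and 99 with the Arid1a KO label (limma adjusted p = 0.056). Over the 4 Myc-CaP libraries Pf4 had 93 reads and Itga2b 84. Which cells made Ppbp in the epithelium libraries was not tested.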
